A study of Mus musculus with 6 samples.

Results

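Of the 55681 probes on a mouse expression array, 16194 (29.1%) are named not for a gene but for a stretch of the genome, given in the mm9 build with a chromosome, a start, an end and a strand. These interval probes were chosen by that form of name alone, with no use of their levels, and controls were left out. They were placed on this array design to read long noncoding transcripts from regions that lie mostly outside the annotated genes. RNA was measured in endothelial cells sorted from the skin of C57Bl/6J mice, on 3 arrays of wild-type samples and 3 arrays of samples with a knockout of APJ, which is the cell-surface receptor that binds apelin. The genotype was the only labelled difference between the groups. The sorted cells received no treatment before RNA isolation. An embryonic stage stands in the names of the scanner files but in no label. The sources used here do not give the design of the APJ allele or the surface markers of the sort, so what may limit the knockout as a model was not analysed here. The comparison asks how expression in these endothelial cells differs between the genotypes.

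Long noncoding RNAs are transcripts that are processed much like messenger RNA but carry no long reading frame. Many are kept in the nucleus, several act on the chromatin or transcription of nearby genes, and some, such as Meg3, belong to imprinted regions in which only the copy from 1 parent is read. They are typically less abundant than messenger RNA and more restricted to particular cell types, and for most intervals of the kind placed on this array no function is known.

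The interval probes covered 3543 intervals on 20 chromosomes. Probes for both strands existed for 1067 intervals, 2473 intervals had probes for 1 strand, and 3 intervals with 13 probes carried no strand in their name. The forward strand had 8171 probes and the reverse strand 8010. An interval had from 1 to 10 probes on a strand, with a median of 3, and intervals ran from 62 to 7128487 bp, with a median length of 7304 bp. Some intervals lie within others, and after overlapping intervals on the same strand were joined there were 3365 separate loci. Probes of 1 interval share a target and are not replicates of one another. The files give the interval, not the place of the probe within it, and no probe sequence. Whether an interval holds an exon, an intron or no gene at all was not analysed here, because the gene table used for names follows a later assembly.

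The deposited values are processed intensities. Levels are given here as log2 intensity minus the 75th percentile of the same array, so a level of 0 is the signal of a probe at that percentile, and a log2 difference is always APJ knockout minus wild type. The percentile lay between 250 and 398 intensity units on the 6 arrays and no spot was saturated. Aplnr, the gene of the receptor, had levels of 3.35, 3.78 and 3.83 on the wild-type arrays against 1.90, 1.72 and 2.26 on the knockout arrays, a difference of -1.69 ± 0.19 (SE, n = 3 and 3, limma adjusted p = 0.0238). With the replicate number as a block its limma adjusted p was 0.0780. The probe was still well above background on 3 of 3 knockout arrays, at 30.9% of wild type. The arrays lie on 2 slides, slide 1 with replicates 1 and 2 of both genotypes and slide 2 with replicate 3 of both. All 18 pan-endothelial marker genes were tested, 11 of them had a difference above 0, and their median difference was 0.02. Since cells were pooled before RNA isolation, fewer cells of a type and less RNA per cell cannot be told apart in any of these values. The number of arrays limits the precision. The labels give each sample a mouse number, but whether a sample is 1 animal is not settled, so p-values measure the spread between these samples.

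Interval probes were detected less often than probes for genes. The scanner software's call of a signal well above background was met by 35.1%, 31.3% and 40.9% of interval probes on wild type arrays 1 to 3 and by 34.5%, 32.2% and 41.5% on knockout arrays 1 to 3. The 2 arrays of slide 2 were the highest in both genotypes, with a mean of 41.2% against 33.3% on slide 1. Wild type averaged 35.8% ± 4.82 (SD, n = 3) and knockout 36.0% ± 4.84 (SD, n = 3), and the groups overlapped. The difference of 0.285 percentage points had an exact permutation p of 0.90, in a design whose smallest possible p is 0.10.

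Curated messenger RNA probes were detected at 68.8% ± 2.38 (SD over 6 arrays), and the interval probes minus these gave -32.9 percentage points (SD 1.97), lower on 6 of 6 arrays. An exact sign-flip permutation test gave p = 0.03125, the smallest that 6 arrays allow. The difference was -34.1 points within slide 1 and -30.5 points within slide 2, where the 4 and 2 arrays allow no p below 0.125 and 0.50. Probes for curated noncoding RNAs, at 50.3% ± 3.57, stood between the classes, and the intervals minus these gave -14.4 points (SD 0.95, lower on 6 of 6 arrays, the same exact permutation p). Probes for predicted messenger RNAs were detected at 40.8%, with a difference for the intervals of -4.90 points (SD 1.09, lower on 6 of 6 arrays, the same exact permutation p). Not all noncoding classes lay between: probes for predicted noncoding RNAs were detected at 73.8% ± 2.24, above the curated messenger RNA probes. The intervals minus these gave -37.9 points (SD 2.12, lower on 6 of 6 arrays, the same exact permutation p).

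**Figure D1:**
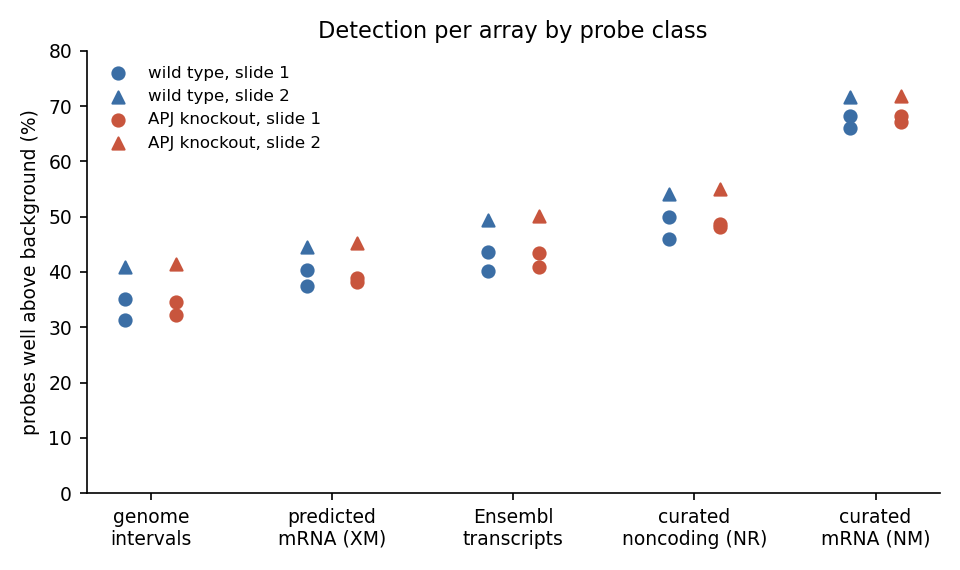
Share of probes well above background on each array, in percent, for 5 classes of probe, with circles for slide 1, triangles for slide 2 and colours for the genotype. The interval probes lie between 31.3% and 41.5%, the curated messenger RNA probes stand above them on each array, and slide 2 is the higher slide in every class shown. Probes for predicted noncoding RNAs, with a mean of 73.8%, are not shown.

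Detection also differed with strand, length and chromosome of the interval. Forward-strand probes were detected at 34.6% and reverse-strand probes at 37.2%, a difference of -2.67 points (SD 0.412 over 6 arrays, from -3.22 to -1.99). Intervals under 1 kb had a mean of 31.3%, those from 1 to 10 kb 37.9%, those from 10 to 50 kb 36.4% and those of 50 kb or more 35.7%. The gain over the shortest class was 6.64, 5.08 and 4.36 points, positive on 6 of 6 arrays each time. The 577 probes on chromosome X were detected at 32.7% and those on the autosomes at 36.0%, a difference of -3.28 points (SD 0.621). Each of these 5 contrasts had the smallest exact permutation p that 6 arrays allow, 0.03125, and the same value after adjustment over the 5. The arrays share 1 set of probes, so these p-values speak for the arrays and not for a new choice of intervals.

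Within an interval, detection was mostly partial. Of the 3385 interval strands with at least 3 probes, 329 (9.72%) had every probe well above background on all arrays of at least 1 genotype, 1772 (52.3%) had some, and 1284 (37.9%) had none. Over all members, 8593 probes were well above background on 0 of 6 arrays and 4610 on all 6. The level filter, all 3 arrays of at least 1 genotype, kept 5170 interval probes (31.9%) from 2134 intervals (60.2%), and the remaining members have no test. Of those kept, 299 passed only through the knockout and 261 only through wild type, and the filter favours a difference between the genotypes in such a probe. At the edge of this filter stood the dimmest probe kept, A_30_P01026901 on chromosome 16, with a mean level of -5.30. The brightest one not kept, A_30_P01020420 on chromosome 10, had a mean of -3.31 and was well above background on 2 wild-type and 2 knockout arrays.

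Among the 5170 probes kept, levels ran from -5.30 to 8.80, with a median of -2.35 and quartiles of -3.37 and -0.83. The median over everything tested was -0.17 and over curated messenger RNAs 0.95. The intervals were also the noisier class, with a median within-group SD of 0.20 log2 units against 0.16 over everything tested. Arrays correlated at r = 0.978 to 0.990 over the kept interval probes, as a description over probes that share each array. Between slides, the 4 pairs within a genotype lay at 0.982 to 0.984 and the 4 pairs across genotypes at 0.978 to 0.982. Within a slide, the 2 pairs of 1 genotype lay at 0.986 to 0.987 and the 5 pairs across genotypes at 0.978 to 0.990.

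A few intervals were bright. The 8 brightest probes had mean levels between 7.96 and 8.80 and were well above background on 6 of 6 arrays. A_30_P01026458, on the reverse strand of chr11:22681800-22707775, had levels of 8.78, 8.87 and 8.84 on the wild-type arrays against 8.72, 8.84 and 8.78 on the knockout arrays. A_30_P01020015, on the forward strand of chr17:39982023-39983277, read 8.56, 8.68 and 8.65 on the wild-type arrays against 8.45, 8.85 and 8.61 on the knockout arrays. In both, the arrays of the genotypes overlapped. The interval chr12:73838608-73862621 gave a bright probe on each strand, A_30_P01020570 (forward, 8.39 ± 0.19 on the wild-type arrays against 8.32 ± 0.17 on the knockout arrays, SD, n = 3) and A_30_P01031264 (reverse, 8.08 ± 0.26 and 7.84 ± 0.20). The other 4 were A_30_P01030669 on chr7:108209996-108216032, A_30_P01024724 on chr13:73472571-73483846, A_30_P01022075 on chr17:17481706-17482457 and A_30_P01026230 on chr2:31714946-31716972. Differences of the 8 lay between -0.23 and 0.04, and none passed the test (limma, smallest adjusted p = 0.994).

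The genotypes were then compared across all 24243 genes and unnamed probes that passed the filter, of which 135 passed a limma adjusted p of 0.05 (0.557%), 90 of them higher in the knockout (0.371%) and 45 lower (0.186%). Of the 5170 interval probes tested, 17 rose (0.329%) and 2 fell (0.0387%), shares below that background in both directions. Their arrays did not overlap between genotypes in 541 cases (10.5%), against 12.2% over everything tested, and an unadjusted p below 0.05 was met by 376 (7.27%), against 8.01%. A log2 difference of at least 1 in size was seen in 54 (1.04%), against 1.28%. The median difference was -0.03, with quartiles of -0.13 and 0.08, and -0.02 over everything tested. By each of these counts the interval probes stood at or below the array as a whole.

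The calls themselves depended on single arrays and on whether the replicate number was a block. Without wild type replicate 1, 2 or 3 the interval probes called higher were 7, 5 and 10, and without knockout replicate 1, 2 or 3 they were 3, 7 and 5. With the shared replicate number as a block in limma, 5 features of all 24243 passed, among them 1 interval probe that was higher and 0 that were lower (324 and 316 at an unadjusted p below 0.05). The other 17 probes described below had limma adjusted p-values of 0.0739 to 0.155 under that block. With the slide as a block, 16 of the 18 described here passed.

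**Figure D2:**
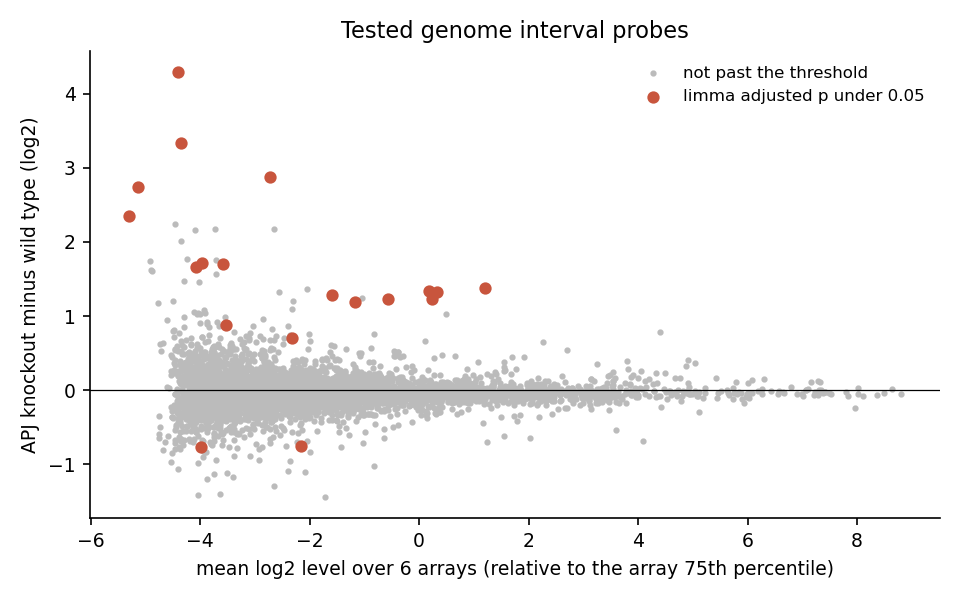
Difference between genotypes (APJ knockout minus wild type, log2) against the mean level over 6 arrays for the 5170 tested interval probes, each point 1 probe, with those past a limma adjusted p of 0.05 in red. The called probes lie mostly above 0, at 17 higher and 2 lower, and the scatter narrows towards bright probes.

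The 18 called probes that are described came from 12 loci, and in each the 3 arrays of the knockout were separated from the 3 of wild type. Adjusted p-values ran from 0.000549 to 0.0494 and 14 of the 18 differed by at least 2-fold. The filter kept 8 of the 18 through the knockout alone and 1 through wild type alone. That choice favours a difference in such a probe, so its p-value is printed for completeness and supports nothing by itself. The remaining 9 were well above background on 6 of 6 arrays.

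**Figure D3:**
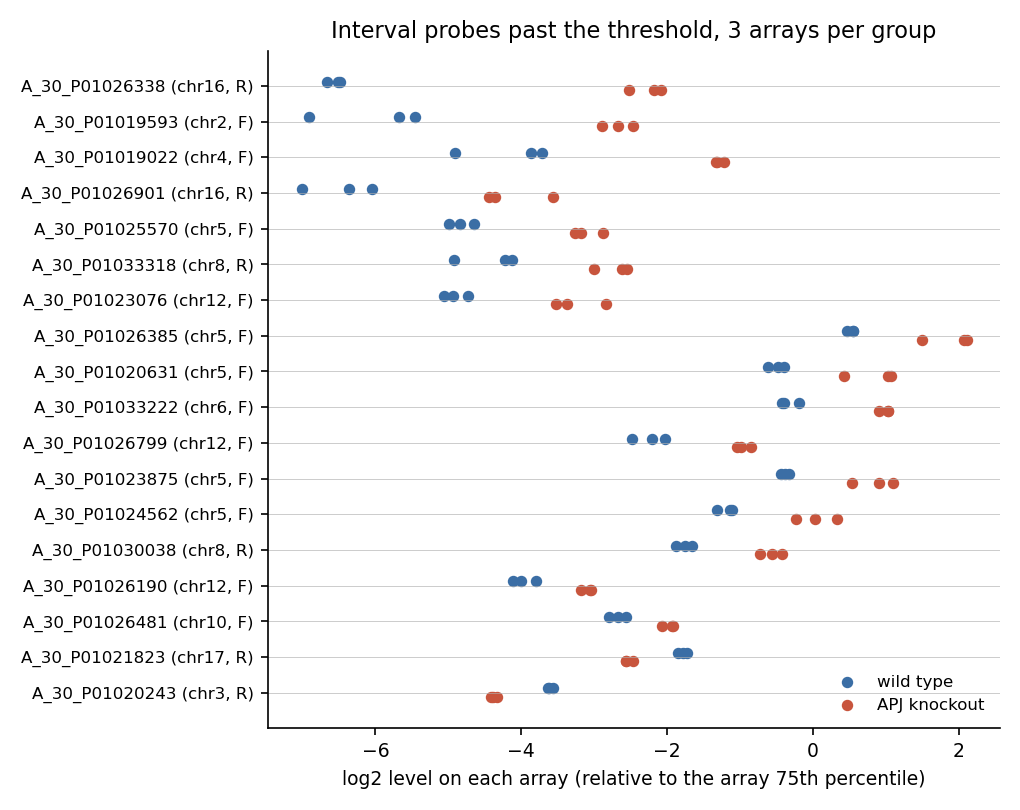
Levels on each array (log2, relative to the 75th percentile of the array) of the 18 described interval probes past the threshold, with blue points for wild type, red points for the knockout and F or R for the forward or reverse strand, ordered by the difference. The genotypes do not overlap in any row, and only the lowest 2 rows, on chromosomes 17 and 3, have the knockout arrays on the left.

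The locus with most called probes was on chromosome 5. Its forward strand, chr5:137392195-137426421 with a pair of shorter intervals nested inside it, carried 12 probes, of which 10 were tested. All 10 had a difference above 0, between 0.38 and 1.76 with a median of 1.24, 8 had arrays that did not overlap (12.2% over everything tested), and 5 passed the test. Of the 10, 2 were kept through the knockout alone, and all 8 kept through both genotypes were above 0, with 4 called. The 2 kept through the knockout alone had the largest differences, 1.72 and 1.76, and are counted among those whose arrays did not overlap. The mean over all 10, these 2 included, was -1.64, -1.73 and -1.49 on the wild-type arrays and -0.25, -0.67 and -0.38 on the knockout arrays. By that mean every knockout array stood above every wild-type array, but the mean includes the 2 probes that the filter favoured. No mean over the 8 kept through both genotypes was taken. Among those 8, the arrays overlapped at A_30_P01028102 and A_30_P01020178 and not at the others. The reverse strand of the same interval behaved otherwise. Its 6 tested probes differed by -0.15 to 0.10, none passed, and their mean was -2.07, -2.06 and -2.14 in wild type against -2.17, -2.24 and -2.07 in the knockout. The difference between the strands was not tested.

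Among the forward probes of this locus, A_30_P01026385, in the nested interval chr5:137395007-137412976, read 0.47, 0.54 and 0.55 on the wild-type arrays against 2.08, 1.502 and 2.11 on the knockout arrays. The difference was 1.38 ± 0.17 (SE, n = 3 and 3, limma adjusted p = 0.0335). A_30_P01020631, in chr5:137411861-137413010, read -0.61, -0.48 and -0.39 against 1.07, 0.43 and 1.03, with limma adjusted p = 0.0454. In both, knockout replicate 2 was the lowest knockout array and still exceeded every wild-type array. A_30_P01023875 rose by 1.23 ± 0.15 (SE, n = 3 and 3, limma adjusted p = 0.0324) and A_30_P01024562 by 1.23 ± 0.16 (limma adjusted p = 0.0363), both in the longest interval; the last of these was chosen after its values were seen. The dimmest of the 5, A_30_P01025570, was above background by that call on 0 of 3 wild-type arrays. Its means were -4.82 ± 0.17 on the wild-type arrays against -3.103 ± 0.20 on the knockout arrays (SD, n = 3), which makes it at least 3.00-fold higher in the knockout (limma adjusted p = 0.0123, for a probe kept through the knockout alone). This bound sets the knockout mean against the lowest signal called well above background on each wild-type array where that is the higher value, and it leaves out the spread between arrays.

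On chromosome 12, 10 intervals between positions 110842149 and 110988678 carried 64 probes, of which 21 were tested. On the forward strand 14 of 17 tested probes had a difference above 0, with a median of 0.38, and 3 passed the test. The filter kept 7 of these 17 through the knockout alone, and of the 10 kept through both genotypes 7 were above 0 and 1 was called. On the reverse strand 1 of 4 was above 0, with a range of -0.32 to 0.29 and none called. Arrays did not overlap between genotypes at 9 forward probes, 8 higher and 1 lower in the knockout, and at 3 reverse probes, 1 higher and 2 lower, against 12.2% of everything tested. Of the 8 higher forward probes, A_30_P01020822, A_30_P01021613, A_30_P01023076 and A_30_P01026190 were kept through the knockout alone. The filter favours separated arrays in these. The others, A_30_P01026799, A_30_P01027400, A_30_P01029937 and A_30_P01032789, were kept through both genotypes. A_30_P01026799, on the forward strand of chr12:110894095-110899517, read -2.21, -2.03 and -2.48 on the wild-type arrays against -0.98, -0.85 and -1.03 on the knockout arrays, a difference of 1.28 ± 0.13 (SE, n = 3 and 3, limma adjusted p = 0.0208). A_30_P01032789 in the same interval differed by 1.36 but did not pass (limma adjusted p = 0.0693). The genotypes did not overlap at either probe.

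A_30_P01023076, on the forward strand of chr12:110944403-110988678, read -5.06, -4.94 and -4.73 in wild type, where 1 of 3 arrays was well above background so that it was kept through the knockout alone, and -3.38, -2.84 and -3.52 in the knockout. Its difference was 1.66 ± 0.20 (SE, n = 3 and 3, limma adjusted p = 0.0271). A_30_P01026190, in the nested chr12:110973190-110987668 and chosen after its values were seen, rose by 0.88 ± 0.11 (limma adjusted p = 0.0335), with 2 of 3 wild-type arrays well above background, and was likewise kept through the knockout alone. The brightest probe of this stretch, A_30_P01027949, read 0.90 ± 0.28 on the wild-type arrays against 0.82 ± 0.26 on the knockout arrays (SD, n = 3), with overlapping arrays. Differences within this single interval ran from -0.24 to 1.66. Every tested probe of it with a difference above 0 was kept through the knockout alone, which favours such a difference. Those kept through both genotypes, A_30_P01023829 and A_30_P01027949, differed by -0.24 and -0.08.

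**Figure D4:**
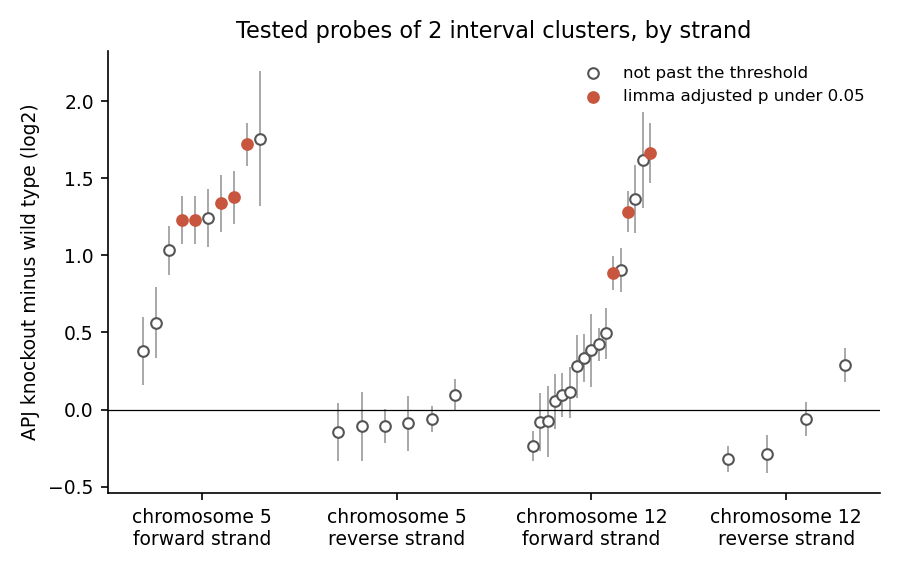
Difference between genotypes (log2, with the SE of the fit as bars) for each tested interval probe of the chromosome 5 locus and of the chromosome 12 stretch, split by strand and ordered by size within a column. All 10 forward probes on chromosome 5 and 14 of 17 forward probes on chromosome 12 lie above 0, and filled points, which passed the test, occur on the forward strand only at 5 and 3 probes.

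Meg3 and Mirg, noncoding RNAs of the imprinted Dlk1-Meg3 region on chromosome 12, were both higher in the knockout. Meg3 read -0.49, -0.03 and -0.47 on the wild-type arrays against 1.09, 0.72 and 0.81 on the knockout arrays, a difference of 1.20 ± 0.16 (SE, n = 3 and 3, limma adjusted p = 0.0441). Its other 2 probes, which were not tested, differed by 1.43 and 1.49. The first of them was well above background on 1 of 3 wild-type arrays and met the filter through the knockout alone. The second was well above background on 6 of 6 arrays. Mirg, a host of many microRNAs, read -2.53, -2.10 and -2.40 against -0.82, -1.21 and -1.29, a difference of 1.24 ± 0.17 (limma adjusted p = 0.0441). Dlk1, a protein-coding gene of the region, read 0.46, 1.18 and 0.99 on the wild-type arrays against 1.60, 0.61 and 1.33 on the knockout arrays, and its arrays overlapped (0.30 ± 0.30 SE, limma adjusted p = 1.00). Rtl1, also protein-coding, was well above background on 0 of 6 arrays. Whether the chromosome 12 intervals overlap Meg3 or Mirg was not analysed here. With the replicate number as a block, Meg3 had a limma adjusted p of 0.129 and Mirg 0.126.

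The list of 74 known long noncoding genes had 33 members on the array and 28 that were tested. Of these 2 rose, Meg3 and Mirg, and 1 fell, against 0.557% called over everything tested. A difference above 0 was seen in 11 of 28 and the median was -0.02. The one that fell was Six3os1, a transcript that runs antisense to the homeobox gene Six3, with levels of -3.59, -3.83 and -3.73 on the wild-type arrays against -4.64, -4.95 and -4.82 on the knockout arrays (-1.09 ± 0.12 SE, limma adjusted p = 0.0227, 0.0739 with the replicate block). It was well above background on 1 of 3 knockout arrays and was kept through wild type alone. Ftx, a regulator of Xist, differed by -0.49, Morrbid by 0.56 and Crnde by -0.28, with arrays that did not overlap. None of them passed (limma adjusted p = 0.399, 0.461 and 0.666). Malat1, an abundant nuclear RNA, differed by -0.52 with overlapping arrays (limma adjusted p = 0.672). Snhg6, Peg13, Snhg12 and Snhg1, taken for their bright probes, had mean levels of 5.43, 4.57, 3.69 and 3.096 and differences between -0.01 and 0.08.

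The single probe with the lowest adjusted p came from the reverse strand of chr16:3111550-3130500, an interval of 18951 bp with 3 probes. A_30_P01026338 read -6.67, -6.48 and -6.51 in wild type, well above background on 0 of 3 arrays, and -2.09, -2.18 and -2.52 in the knockout, where all 3 arrays were. It was at least 5.62-fold higher in the knockout (limma adjusted p = 0.000549). The filter kept it through the knockout alone, which favours a difference, and the p-values here carry that choice. It was the interval probe that also passed with the replicate block (limma adjusted p = 0.0431) and with each of the 6 arrays left out in turn (largest limma adjusted p = 0.0131). A_30_P01026901 of the same interval had means of -6.47 ± 0.49 and -4.12 ± 0.49 (SD, n = 3) and was at least 1.55-fold higher (limma adjusted p = 0.0444, 0.0553 with the slide block), also kept through the knockout alone. The remaining probe, A_30_P01018084, was below the filter, well above background on 0 wild-type and 2 knockout arrays, with means of -6.92 and -4.20. All 3 probes of this interval therefore lay higher in the knockout, from wild-type signals at the array's background.

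At other loci a single probe stood apart from its neighbours. On the forward strand of chr2:181650800-181669350, A_30_P01019593 read -6.91, -5.68 and -5.45 in wild type, well above background on none, and -2.47, -2.67 and -2.89 in the knockout. It was at least 4.21-fold higher (limma adjusted p = 0.0240, for a probe kept through the knockout alone). The other 3 tested forward probes of the locus, among them A_30_P01032905 with 0.65 ± 0.11 and 0.61 ± 0.07 (SD, n = 3), differed by -0.33 to 0.24.

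On the forward strand of chr4:129488462-129516410, A_30_P01019022 read -3.71, -4.91 and -3.87 in wild type, with 2 of 3 arrays well above background and so kept through the knockout alone, and -1.31, -1.33 and -1.22 in the knockout. The difference was 2.88 ± 0.30 (SE, n = 3 and 3, limma adjusted p = 0.0213). The interval nested inside it, chr4:129497990-129515290, had 10 tested forward probes, whose differences were 0.04 to 0.60 and whose smallest limma adjusted p was 0.865. All 10 were thus nominally above 0 without passing, and the large difference was read by 1 probe.

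On the forward strand of chr6:5311375-5328075, A_30_P01033222 read -0.39, -0.19 and -0.42 on the wild-type arrays against 1.03, 1.03 and 0.91 on the knockout arrays, 2.51-fold higher (1.32 ± 0.10 SE, n = 3 and 3, limma adjusted p = 0.00834). The other tested probe of that strand, A_30_P01031578, read 2.46 ± 0.03 and 2.37 ± 0.13 (SD, n = 3), with limma adjusted p = 1.00. The groups were well separated at the first probe and overlapped at the second.

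Both called loci of chromosome 8 were on the reverse strand. A_30_P01030038, in chr8:27129927-27137444 and chosen after its values were seen, read -1.76, -1.66 and -1.88 on the wild-type arrays against -0.43, -0.57 and -0.73 on the knockout arrays (1.19 ± 0.11 SE, n = 3 and 3, limma adjusted p = 0.0205). The 5 other tested probes of the locus, in 2 nested intervals, differed by -0.57 to 0.50 and did not pass. A_30_P01033318, in chr8:85952719-85958369, had means of -4.43 ± 0.44 and -2.73 ± 0.24 (SD, n = 3), with 1 of 3 wild-type arrays well above background (1.70 ± 0.24 SE, limma adjusted p = 0.0467, 0.0561 with the slide block), and was kept through the knockout alone. The interval's second reverse probe, A_30_P01023005, was below the filter, with means of -6.35 and -4.59. On chromosome 10, the forward strand of chr10:81816994-81863610 had 4 tested probes with differences of 0.29 to 0.87. A_30_P01026481, chosen after its values were seen, passed at -2.80, -2.56 and -2.67 in wild type against -1.94, -2.07 and -1.91 in the knockout (0.71 ± 0.10 SE, limma adjusted p = 0.0494).

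Only 2 interval probes fell, both on reverse strands and both by less than 2-fold. A_30_P01020243, in chr3:108763862-108772151, read -3.62, -3.56 and -3.63 on the wild-type arrays against -4.38, -4.41 and -4.33 on the knockout arrays, where 1 of 3 arrays was well above background and the filter kept it through wild type alone, a difference of -0.77 ± 0.08 (SE, n = 3 and 3, limma adjusted p = 0.0208). The 6 other tested probes of that strand differed by -0.12 to 0.41. A_30_P01021823, the single tested probe of 5 in chr17:21866967-21891392, read -1.72, -1.85 and -1.78 against -2.56, -2.47 and -2.56 (-0.75 ± 0.08 SE, limma adjusted p = 0.0240). Both had a spread between arrays of 1 genotype well under the difference, which being called by this test already favours.

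The 6 next probes in that direction, by unadjusted p, did not pass in the fit without a block. With the slide as a block, 3 of them did. The nearest was A_30_P01018968 on the reverse strand of chr7:106529142-106529752, at -0.71 ± 0.05 on the wild-type arrays against -1.28 ± 0.03 on the knockout arrays (SD, n = 3, limma adjusted p = 0.0511, 0.0317 with the slide block). The farthest apart was A_30_P01017437 on the forward strand of chr12:81221532-81232030, at -0.31 ± 0.21 and -1.33 ± 0.31 (limma adjusted p = 0.102, 0.0252 with the slide block). The other 4 were A_30_P01021843 (-0.69, limma adjusted p = 0.0317 with the slide block), A_30_P01021464 (-0.84), A_30_P01032603 (-0.57) and A_30_P01032140 (-0.67), given as log2 differences. In each of the 6 the genotypes did not overlap, which the choice by smallest unadjusted p favours. A_30_P01021464 and A_30_P01032140 were well above background on 3 wild-type arrays and 1 knockout array. The filter kept both through wild type alone, which favours a difference.

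The strands of an interval were read by separate probes, which allows detection and the genotype difference to be set side by side. Of the 1067 intervals with probes on both strands, 496 (46.5%) had a kept probe on both, 207 on the forward strand only, 218 on the reverse strand only and 146 (13.7%) on neither. Where the forward strand had one, 70.6% of reverse strands did too, and 59.9% where it had none. Strand here is that of the probe's name, and the sources used here do not say whether the labelling kept strands apart. Over the 496, the median differences of the strands had the same sign in 278 (56.0%), and they correlated across intervals at r = 0.06 and rho = 0.03, a description over intervals that share the 6 arrays. In 1 interval both strands differed by at least 0.5 in size. A called probe was found on a strand of 8 intervals with probes on both, and in none were both strands called. The other strand had a tested probe in 5 of the 8, and in the rest it could not be called.

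**Figure D5:**
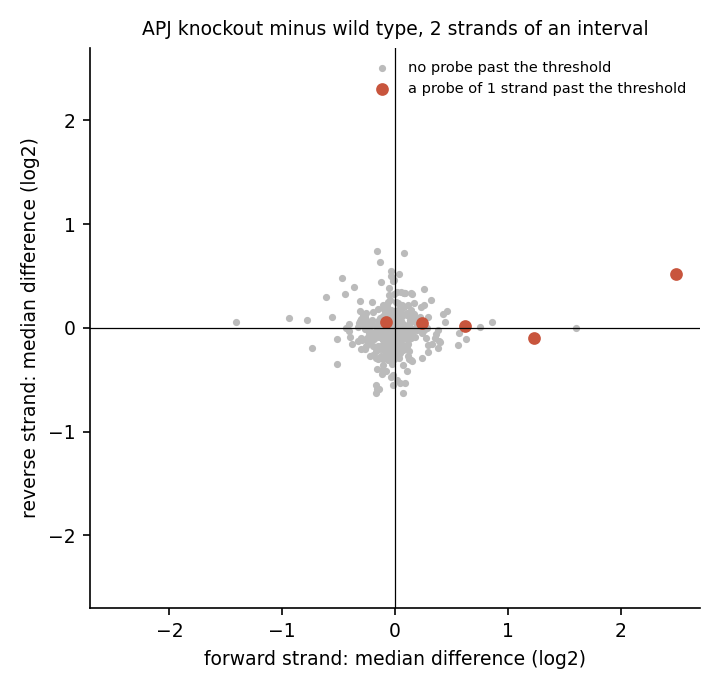
Median difference between genotypes (APJ knockout minus wild type, log2) of the forward strand against that of the reverse strand, for the 496 intervals with kept probes on both strands, each point 1 interval. The points form a round cloud around 0 (r = 0.06), and the 5 intervals with a called strand, in red, keep the other strand near 0 except for 1.

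Among the intervals with the brightest pairs of strands, chr17:39960567-39992817 had 4 tested forward probes with differences of 0.02 to 0.17 and 5 tested reverse probes with 0.16 to 0.41. Its reverse probe A_30_P01018010 read 4.85 ± 0.08 on the wild-type arrays against 5.22 ± 0.26 on the knockout arrays (SD, n = 3), with no overlap and limma adjusted p = 0.585. In chr14:115423660-115463160, 6 forward and 5 reverse probes were tested, with medians of -0.05 and -0.07. The pairs at chr5:34696192-34722842 had medians of 0.06 and 0.12, those at chr6:35201798-35217831 0.00 and -0.10, and those at chr14:33923944-34003394 -0.01 and -0.03. None of these strands held a called probe.

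Apart from chromosome 12, the 4 stretches with most tested probes, where neighbours lie within 50 kb, were chr11:95561419-95658549 with 30 tested of 43, chr13:94180737-94203935 with 22 of 50, chr1:138442536-138632310 with 21 of 78 and chr11:3521324-3554450 with 21 of 31. Their median differences were -0.07, 0.03, -0.10 and -0.06, and none held a called probe. The 13 probes without a strand fell in 3 intervals. All 5 probes of chr17:12941161-12944859 were well above background on 6 of 6 arrays, with differences of -0.19 to -0.05, none called. All 3 probes of chr3:34856791-34869544 were well above background on 0 arrays, and 1 of 5 in chr6:52032838-52033444 was tested, at 0.31 (limma adjusted p = 0.894). 

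No marker of another cell type passed the test, but several lists leaned to 1 side. Macrophage markers had a difference above 0 in 12 of 13 tested genes (median 0.48), lymphatic markers in 8 of 8 (0.54), erythroid markers in 6 of 6 (0.26) and platelet markers in 6 of 8 (0.26), while keratinocyte markers were above 0 in 0 of 8 (-1.30). Mural markers had 3 of 6 above 0 and fibroblast markers 2 of 6. As log2 of the summed signal over a list, macrophage markers spanned 3.92 to 4.92 in wild type and 4.15 to 4.86 in the knockout, keratinocyte markers 3.38 to 5.23 and 3.41 to 3.54, and lymphatic markers 9.06 to 9.28 and 9.18 to 9.35. Platelet sums, 2.54 to 2.64 and 2.84 to 3.20, did not overlap, and erythroid sums, 5.80 to 6.47 and 6.13 to 6.77, did. Pan-endothelial sums spanned 10.35 to 10.49 and 10.42 to 10.54. Dsc3 of the keratinocyte list, Dpt of the fibroblast list and Myh11 and Des of the mural list were well above background on 0 of 6 arrays. The part of these cells in the interval differences was not tested.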

How the data were processed

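The deposited scanner files give, per the file headers, a processed intensity for each spot, background-subtracted and detrended by Agilent Feature Extraction 10.7.3.1 with the mm9 build. Per the labels' protocols, 0.1 µg RNA from RNeasy columns was labelled with Cy3 by a low-input whole-transcript kit. Outlier spots (126 to 179 of 59305 per array) were left out, log2 intensities were centred on each array's 75th percentile and spots of a probe averaged. Everything well above background on all 3 arrays of at least 1 group was fitted with limma 3.58.1 in R 4.3.3 (lmFit, eBayes, genotype only, two-sided, Benjamini-Hochberg over 24243 features, threshold 0.05). Symbols share 1 probe, the brightest, and come from a RefSeq table of GRCm38.p6, used for names only. The fit was tested on simulated data. Of the tested probes, 8 lacked an array.

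Members and lists were chosen with earlier results of these data known. The rule for named probes took, per direction, the 12 largest called differences with groups that do not overlap, filled to 8 by unadjusted p where fewer passed; the 8 brightest; the 8 brightest strand pairs and any with a called strand; the 5 stretches with most tested probes; the probes at the filter's edge; and, of the known noncoding list, those called, up to 6 by p and 4 by level. The files hold no positions for gene probes, so no nearest gene is given. The text marks each called probe that falls outside the rule. No probe on chromosome 18 is named, although counts include 1.

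Same-numbered arrays had residual correlations of 0.233, 0.152 and 0.649, and the replicate number was used as a block in an alternative fit. Within slide 1 the cross-numbered arrays correlated more, wild type 1 with knockout 2 at 0.358 and wild type 2 with knockout 1 at 0.279. These values therefore do not show that numbers 1 and 2 pair the arrays, and replicate 3 of both groups is slide 2. Alternatives were the median as centre, normexp (offset 50, on the median signal and median background, as the mean signal is not a column of the files used) with quantile normalisation, the deposited value table, other filters, no collapse to symbols, blocks for slide or replicate, an exact permutation test and each array left out.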

Additional observations from a re-analysis of the deposited data

How the results depend on the processing

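Interval probes called higher were 17 and lower 2, with 135 features and 3 known noncoding genes called in all. Without a filter on dim probes these were 1, 0, 3 and 0. With probes well above background on all 6 arrays they were 7 higher and 1 lower, and with the slide as a block 291 features and 6 lower. With the replicate block they were 1 higher, 0 lower, 5 features and 0 known genes. At an unadjusted limma p below 0.05 there were 347 lower interval probes and 5 known genes without the filter, and 316 and 7 with the replicate block. Leaving out 1 array gave 3 to 10 higher, 0 to 1 lower, 12 to 63 features and 0 to 0 known genes, with 125 to 242 lower probes and 3 to 6 known genes at an unadjusted p below 0.05. Of the 18 described probes, 6 no longer passed under normexp with quantile normalisation and 18 still did with the array median or the deposited table. The exact permutation test of 3 against 3 cannot go below 0.10, so it says nothing of stability. No called difference changed sign under any alternative run. The groups of every called probe were separated, so leaving out 1 array, splitting by slide or adding a block cannot change the sign. Those runs say nothing of the stability of the direction. Among the brightest probes, uncalled differences near 0 changed sign when 1 array was left out, over -0.10 to 0.10 for A_30_P01020015, -0.092 to 0.030 for A_30_P01030669, -0.17 to 0.028 for A_30_P01020570, -0.14 to 0.0086 for A_30_P01024724, -0.0091 to 0.091 for A_30_P01022075 and -0.18 to 0.054 for A_30_P01026230. The mean share of interval probes detected, 35.9%, became 62.5% with the software's weaker call of a positive and significant signal, 65.2% per interval with at least 1 probe, and 41.2% within slide 2, chosen as a split after seeing the data. With the weaker call 8864 probes could be tested and 828 strand pairs had both strands. The gap to curated messenger RNA probes was -33.5 to -32.5 points with 1 array left out (exact permutation p = 0.0625, the smallest for 5 arrays), -34.1 within slide 1 (p = 0.125) and -30.5 within slide 2 (p = 0.50). Dim signals limit what can be said: 299 probes were kept through the knockout alone, and their wild-type values lie near background.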
